A study of Mus musculus with 2 samples.

Results

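In all, 10 genes of neurite growth were placed against a map of chromosome domain boundaries in mouse olfactory sensory neurons. They were Gap43, Gng8, Tubb3, Stmn1, Stmn2, Dpysl3, Dpysl5, Crmp1, Dcx and Marcksl1. They were listed by name as growth and cytoskeleton genes of immature neurons, by a rule that uses no measured value. Earlier results of these data were known when the list was made. All 10 were found by symbol among the 21755 protein-coding genes of GENCODE release M21 on the 20 chromosomes of the map. The assay was in situ Hi-C, which joins and counts DNA segments that lie close together in fixed nuclei. It was applied to mature neurons of the olfactory epithelium, isolated by FACS from adult animals of both sexes. Both libraries carried a conditional deletion of Ldb1, made by a Cre recombinase under Omp control, and the strain is not specified in the labels. The 2 biological replicates used 1000000 cells each and form 1 group, whose contacts were combined before 1 list of 7610 boundaries was called on GRCm38. Omp is a gene of mature olfactory neurons, so Cre acts late in the life of the cell. No control library was analysed here, so nothing below compares deleted with normal neurons. The files hold no expression values, so neither the sorted cell type nor the activity of the 10 genes could be checked.

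A new olfactory neuron extends an axon to the olfactory bulb and rebuilds its cytoskeleton as it does so. Gap43 and Marcksl1 encode proteins that sit under the growth cone membrane, and Gap43 is the usual marker of the immature olfactory neuron. Tubb3 encodes a neuronal beta tubulin, Dcx a protein that stabilises microtubules, and Stmn1 and Stmn2 encode stathmins that bind free tubulin. Crmp1, Dpysl3 and Dpysl5 encode collapsin response mediator proteins, which pass guidance signals to the cytoskeleton. Gng8 encodes a G protein gamma subunit found in immature olfactory neurons. A boundary is a point that few contacts cross, and the stretch between neighbouring boundaries is called a domain here. Each boundary was a 5 kb bin with a strength, which is a score the authors gave it. They classed a boundary as strong when its score reached 0.5, and the rest were weak.

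The genes fell into 2 settings. Gap43, Stmn2, Dpysl3, Dpysl5 and Dcx stood alone in their domain or with 1 other protein-coding start site. That is 5 of 10, against 20.6% of all protein-coding genes, and 2 of them, Gap43 and Stmn2, had no companion at all (9.54% of all genes). Gng8, Tubb3, Stmn1, Crmp1 and Marcksl1 shared their domains with 3 to 9 others. The median was 2 other start sites for the 10 genes and 5 over all protein-coding genes. With strong boundaries alone the medians were 5 and 8, and with boundaries of score 1 or more the order turned, to 26 for the 10 genes and 20 for all genes. The same trait was common in lists of like genes given further on, at 9 of 27 relatives (33.3%) and 8 of 18 other genes of neuronal growth (44.4%). The median domain of the 10 genes was 170 kb, and 7 of the 10 domains were shorter than the median of 270 kb over all protein-coding genes (49.5% of all genes are, since domain lengths are tied). The median interval between neighbouring boundaries was 260 kb. When strong boundaries alone delimited the domains, the medians were 445 kb for the 10 genes and 465 kb for all genes, a smaller difference in proportion. With boundaries of score 1 or more, the medians were 1220 and 1545 kb. These counts and medians come from 10 hand-listed genes and 1 pooled boundary list, so no test was made and no replicate error exists.

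**Figure D1:**
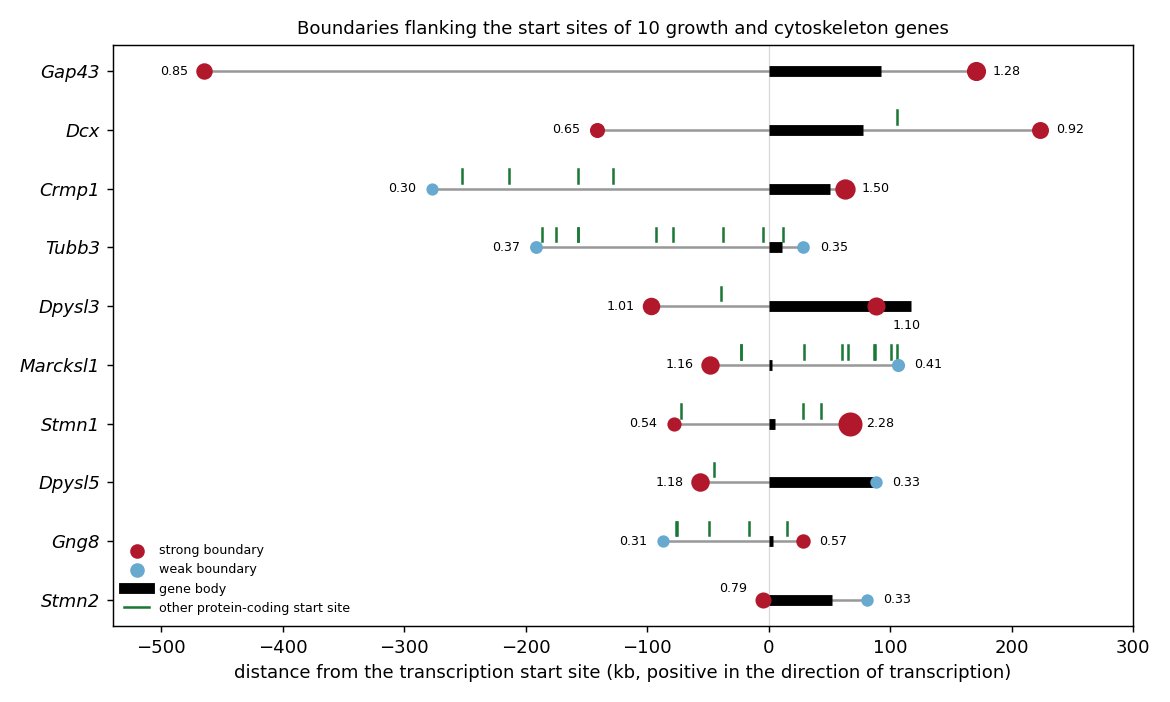
The 10 genes in order of domain length, with the start site at 0 kb and transcription to the right. Circles mark the flanking boundaries, with area growing with strength and the strength printed beside each, black bars the gene bodies, and green ticks the other protein-coding start sites. Gap43 lies in 635 kb with no tick, Stmn2 in 85 kb with no tick, and a strong boundary lies on the Dpysl3 bar.

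Only the start site of Stmn2 lay within 10 kb of a boundary. Over all protein-coding genes 14.3% did, so 1 of 10 is close to the background. No start site lay inside a boundary bin (3.86% of all genes), and 4 of 10 lay within 50 kb of one (45.3% of all genes). The nearest boundary was 4.36 kb from the start of Stmn2, 28.2 kb from Gng8 and 28.6 kb from Tubb3. It was 48.6 kb from Marcksl1, 56.6 kb from Dpysl5, 63.1 kb from Crmp1 and 66.7 kb from Stmn1. Dpysl3 (88.3 kb), Dcx (142 kb) and Gap43 (171 kb) lay farthest. The median of these distances was 59.8 kb, against 56.6 kb over all protein-coding genes. Crmp1, Stmn1, Dpysl3, Dcx and Gap43 started farther out than the all-gene median, and Dpysl5 lay just inside it. The order of the 2 medians turned under other settings. With strong boundaries alone the medians were 64.9 kb for the 10 genes and 100.9 kb for all genes, and with boundaries of score 1 or more 129 and 310 kb. With the most 3' transcript start they were 52.7 and 57.3 kb. Gng8 and Tubb3 differed by less than 1 bin, as did Stmn1 and Crmp1, and have no order at this resolution. The nearer flank was the downstream one for 6 of the 10 genes (46.1% of all genes), and the nearer flank was also the stronger one for 8 of 10 (51.8% of all genes).

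**Figure D2:**
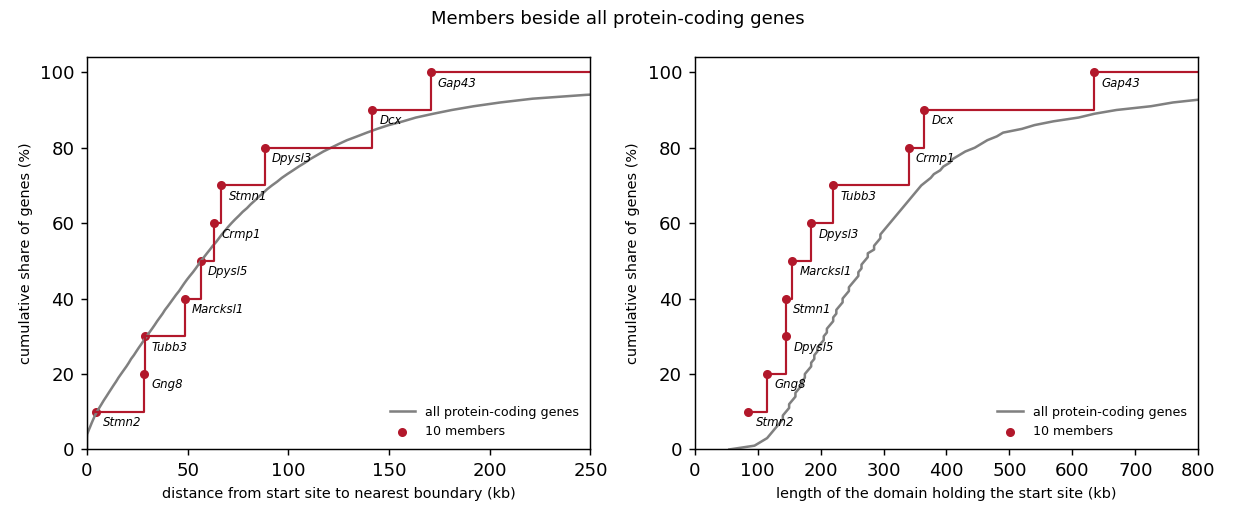
Cumulative share of genes (%) by distance from the start site to the nearest boundary (left, kb) and by domain length (right, kb). Red points are the 10 genes and the grey line is all protein-coding genes. The red steps run close to the grey line on the left (medians 59.8 and 56.6 kb), and left of it for most of the right panel (170 and 270 kb).

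Gap43 had the longest domain of the 10. The gene (ENSMUSG00000047261.9) lies on the reverse strand of chromosome 16 (42248442 to 42340651, GRCm38 throughout) and its domain ran from 42170001 to 42805000, or 635 kb. Of all protein-coding genes 89.0% had a shorter one. No other protein-coding gene started in it. The start sites it did hold belonged to 3 processed pseudogenes and the microRNA gene Mir6540, which lies inside the body of Gap43. Both flanks were strong. The upstream boundary (strength 0.848, 42805001 to 42810000) was intergenic and 464 kb from the start. The nearest protein-coding start site beyond it was that of Zbtb20, which encodes a zinc finger repressor and lay 535 kb from the start of Gap43. The downstream boundary (1.28, 42165001 to 42170000) overlapped an exon of Lsamp, which encodes a neuronal adhesion protein. The last part of Lsamp thus reached into the Gap43 domain.

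Marcksl1 (ENSMUSG00000047945.6) was a 2.41 kb gene in a crowded 155 kb domain on chromosome 4 (129465001 to 129620000, gene at 129513581 to 129515985). Its upstream boundary was strong (1.16, 129460001 to 129465000) and held the start site of Bsdc1. The downstream one was weak (0.407, 129620001 to 129625000), held the start site of Ccdc28b and also overlapped an exon of Tmem234. The 9 other protein-coding genes that started in the domain were Tssk3, Fam229a, Hdac1, Lck, Fam167b, Eif3i, Tmem234, Dcdc2b and Iqcc. Hdac1 encodes a histone deacetylase, and its gene ends less than 1 kb past the end of Marcksl1 on the opposite strand. Lck encodes a T cell kinase and Eif3i a translation initiation factor. Dcdc2b carries doublecortin domains, as Dcx does.

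Stmn2 (ENSMUSG00000027500.10) had the shortest domain, 85 kb on chromosome 3 (8505001 to 8590000), and 0.343% of all protein-coding genes had a shorter one. The gene (8509360 to 8561606, forward strand) was the only annotated gene of any type to start there and filled 52.2 kb of it. The strong upstream boundary (0.788, 8500001 to 8505000) was intergenic and 4.36 kb before the start. The weak downstream boundary (0.325, 8590001 to 8595000) was 28.4 kb past the end of the gene. The nearest other protein-coding start site was that of Hey1, a Notch target, 158 kb from Stmn2 and beyond the downstream boundary. With strong boundaries alone the Stmn2 domain was 410 kb long and held 1 other protein-coding start site.

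Stmn1 (ENSMUSG00000028832.11) is the shorter of the 2 stathmin genes (5.52 kb; chromosome 4, 134468320 to 134473843). Its 145 kb domain (134390001 to 134535000) ended downstream at the strongest boundary of the whole set (2.28, 134535001 to 134540000), which ranked 102 of 7610 in the list. That bin held the start site of Mtfr1l, a mitochondrial fission regulator, and overlapped an exon of Selenon. The upstream boundary was just strong (0.535, 134385001 to 134390000), intergenic, and 1.15 kb from the start site of Extl1. The other protein-coding genes of the domain were Pafah2, Paqr7 and Aunip. Stmn1 and Stmn2 thus differed in most respects. Stmn1 sat near the middle of a shared domain, and Stmn2 at the edge of a domain of its own.

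Tubb3 (ENSMUSG00000062380.4) was the 1 gene of the 10 with no strong flank, as were 13.7% of all protein-coding genes. It lies on chromosome 8 (123411424 to 123422015) in a domain of 220 kb (123220001 to 123440000). The upstream boundary (0.370, 123215001 to 123220000) overlapped an exon of Spata33 and the downstream one (0.354, 123440001 to 123445000) an exon of Def8. The 9 other protein-coding genes that started there were Cdk10, Spata2l, Vps9d1, Zfp276, Fanca, Spire2, Tcf25, Mc1r and Def8. Mc1r, the melanocortin receptor gene of coat colour, started 4.32 kb before Tubb3 on the same strand. Fanca encodes a DNA repair protein. The annotated locus Gm20388 runs across the whole domain. With strong boundaries alone the nearest one was 306 kb away and the domain was 680 kb long, with 18 other start sites.

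Dcx (ENSMUSG00000031285.14) on chromosome X (143855842 to 143933311, reverse strand) had a domain of 365 kb (143710001 to 144075000), the second longest of the 10. Both flanks were strong. The upstream boundary (0.648, 144075001 to 144080000) was intergenic and 142 kb from the start, and the start site nearest to it was that of A730046J19Rik. The downstream boundary (0.925, 143705001 to 143710000) overlapped an exon of Pak3, which encodes a kinase of the cytoskeleton. Capn6, which encodes a calpain-like protein, was the 1 other protein-coding gene to start in the domain. The body of Pak3 also reached into it.

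The 3 genes of collapsin response mediator proteins differed in their domains. Dpysl3 (ENSMUSG00000024501.20) on chromosome 18 (43320984 to 43438286, reverse strand) had the highest weaker flank of the 10 genes, with strengths of 1.01 upstream (43535001 to 43540000, overlapping an exon of Jakmip2) and 1.10 downstream (43345001 to 43350000). The downstream boundary lay inside Dpysl3 itself, 88.3 kb from the start, and overlapped an exon. The last 29.0 kb of the gene therefore lay past the edge of the domain (185 kb, 43350001 to 43535000). Among the 10 genes Dpysl3 alone had a boundary in its body. Of all protein-coding genes 16.2% did, and of those 100 to 150 kb long 33.7%. Eif3j2, a gene for a translation initiation factor subunit, was the other protein-coding gene to start in the domain. When the start was taken from the most 3' protein-coding transcript of Dpysl3, the nearest boundary was 23.3 kb away.

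Dpysl5 (ENSMUSG00000029168.14) on chromosome 5 (30711564 to 30799375) shared its 145 kb domain (30655001 to 30800000) with Cenpa, which encodes the centromeric histone variant. Its upstream boundary was strong (1.18, 30650001 to 30655000) and overlapped an exon of Slc35f6. The gene ended 0.626 kb before the weak downstream boundary (0.325, 30800001 to 30805000). The nearest start site to that boundary was that of Mapre3, which encodes a microtubule end-binding protein, 9.64 kb away.

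Crmp1 (ENSMUSG00000029121.16) lies on the same chromosome (37241940 to 37292133) in a domain of 340 kb (36965001 to 37305000). It sat at the downstream end, 63.1 kb from a strong boundary (1.50, 37305001 to 37310000) that overlapped an exon of Evc, a gene of hedgehog signalling at the cilium. The upstream boundary was weak (0.302, 36960001 to 36965000), intergenic and 277 kb away. The domain held Wfs1, Jakmip1 and Gm1043, and Jakmip1 stands under 2 gene identifiers in the annotation, which makes 4 start sites.

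Gng8 (ENSMUSG00000063594.5) on chromosome 7 (16891786 to 16895436, 3.65 kb long) had a domain of 115 kb (16805001 to 16920000), and 2.83% of all protein-coding genes had a shorter one. The upstream boundary was weak (0.313, 16800001 to 16805000) and intergenic. The downstream one was just strong (0.565, 16920001 to 16925000) and held the start site of Calm3, a calmodulin gene. The other protein-coding genes of the domain included Strn4, Prkd2, Dact3 and Ptgir. Ptgir, the prostacyclin receptor gene, started 14.7 kb from Gng8.

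Gene length separated the 2 settings. The 5 genes with at most 1 companion were 52.2 to 117 kb long, and the 5 with 3 or more were 2.41 to 50.2 kb long. Over all protein-coding genes the median length was 62.0 kb with at most 1 companion and 12.4 kb with 3 or more. The gap between the shortest of the first 5, Stmn2 at 52.2 kb, and the longest of the others, Crmp1 at 50.2 kb, was small. The domains of the first 5 had a GC content of 39.6 to 47.3% and those of the other 5 had 48.8 to 51.8%. Strong boundaries made up 8 of the 10 flanks of the first 5 genes and 5 of the 10 flanks of the others. Strong flanks are common in general. Over all protein-coding genes 37.1% had both flanks strong, 49.2% had 1 and 13.7% had none. Domain length did not separate them, with 85 to 635 kb against 115 to 340 kb. The split was made after the values were seen and has no test.

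**Figure D3:**
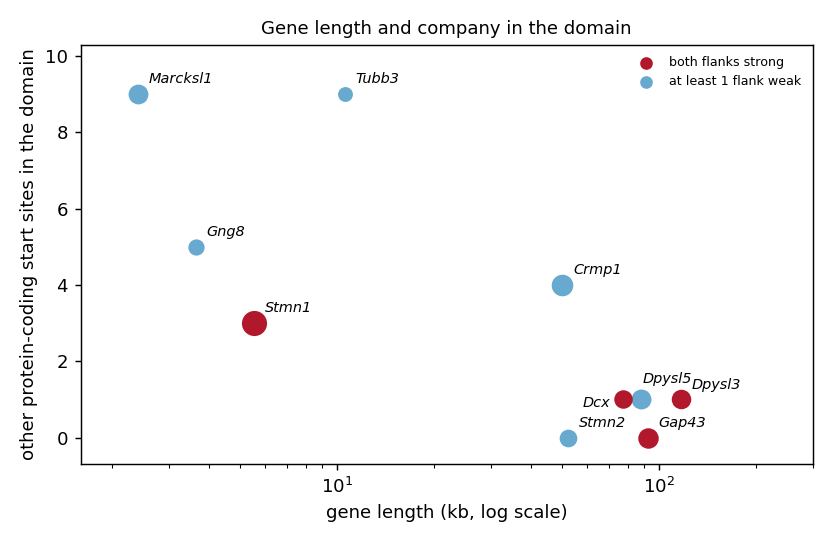
Gene length (kb, log scale) against the number of other protein-coding start sites in the domain. Red points have strong boundaries on both sides, blue points at least 1 weak one, and the area grows with the stronger flank. The 5 genes with 0 or 1 companion are all at least 52.2 kb long.

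The 10 genes had 20 flanking boundaries, none of them shared. Of these 13 were strong (65.0%, against 52.9% of all boundaries), and their median strength was 0.718, against 0.538. All boundaries are an unlike background here, since these 20 were taken as flanks of start sites. The shares by gene, which follow, compare like with like. Both flanks were strong for Gap43, Stmn1, Dpysl3 and Dcx, which is 4 of 10 (37.1% of all genes). A further 5 had 1 strong flank (49.2% of all genes). The median of the weaker flank was 0.381, against 0.406 over all genes. With strong boundaries alone the order turned, to 0.798 against 0.726, and with boundaries of score 1 or more it was 1.17 against 1.18. A protein-coding start site lay within 10 kb of 9 of the 20 boundaries (31.1% of all boundaries). Of the 20, 8 overlapped no protein-coding gene (53.9% of all boundaries). These counts again stand beside all boundaries, the unlike background. The start site near the upstream boundary of Stmn2 was that of Stmn2, and the downstream boundary of Dpysl3 overlapped Dpysl3 itself. The counts thus depend in part on how the flanks were chosen. The bins held 6 to 18 sites for DpnII, the enzyme that cut the DNA, with a median of 12.5, against 12 over all boundary bins.

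CTCF, the protein at which loops extruded by cohesin come to rest, binds a long motif whose direction matters. Its core consensus was searched on both strands, and a match is a stretch of sequence, not a measured binding site. A match lay within 10 kb of 13 of the 20 flanking boundaries, against 24.4% of all boundaries. Among strong flanks 8 of 13 had a match (32.0% of all strong boundaries), and among weak flanks 5 of 7 did (15.9% of all weak boundaries). Gng8, Stmn2, Dpysl5 and Crmp1 had a match at both flanks, which is 4 of 10 (8.92% of all genes). The 5 genes Gap43, Tubb3, Stmn1, Dpysl3 and Marcksl1 had one at 1 flank, and Dcx at none, so 9 of 10 had at least 1 (46.5% of all genes). The count rests on the window: within the bins themselves 3 of 20 had a match (6.28% of all boundaries), within 25 kb 15 of 20 (38.5%), and with 1 mismatch allowed all 20 of 20 (89.1%). None of the 14 matches lay in soft-masked repeats.

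The 3 matches that lie in the bins and 5 outside any exon beside Stmn2, Crmp1, Dpysl5 and Marcksl1 are shown to let their letters and surroundings be compared. Each is written 5' to 3' on its own strand, from the GRCm38 sequence of RefSeq, with the 12 letters of the consensus in capitals.
Gap43 downstream, in the bin, chr16:42165109-42165148, reverse strand: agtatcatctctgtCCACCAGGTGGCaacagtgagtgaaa
Stmn1 upstream, in the bin, chr4:134387456-134387495, reverse strand: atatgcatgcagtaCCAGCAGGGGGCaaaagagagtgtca
Stmn2 upstream, 8.87 kb from the bin, chr3:8513854-8513893, forward strand: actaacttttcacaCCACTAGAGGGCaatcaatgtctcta
Stmn2 downstream, in the bin, chr3:8594875-8594914, forward strand: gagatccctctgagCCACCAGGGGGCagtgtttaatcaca
Crmp1 upstream, 4.53 kb from the bin, chr5:36955453-36955492, reverse strand: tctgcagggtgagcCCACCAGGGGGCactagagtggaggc
Crmp1 downstream, 6.48 kb from the bin, chr5:37298505-37298544, forward strand: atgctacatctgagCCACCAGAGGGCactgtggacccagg
Dpysl5 downstream, 1.31 kb from the bin, chr5:30806290-30806329, forward strand: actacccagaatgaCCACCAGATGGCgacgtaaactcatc
Marcksl1 upstream, 4.46 kb from the bin, chr4:129455522-129455561, reverse strand: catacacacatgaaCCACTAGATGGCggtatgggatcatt

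The 3 matches in a bin, at Gap43, Stmn1 and Stmn2, all pointed out of the domain of the gene. The direction of matches in a bin was not counted over all boundaries, so these 3 have no background. Of the 11 matches outside a bin 8 pointed away from their boundary, as did 65.6% of such matches over all boundaries. The exceptions were upstream of Gng8 and downstream of Crmp1 and Dpysl3. The match beside the upstream boundary of Stmn2 lay in an intron of Stmn2, past the start site. The one downstream of Crmp1 lay in an intron of Evc, the one in the Gap43 bin in an intron of Lsamp, and the other 5 shown were intergenic. The match at Dpysl3 lay in an intron of Dpysl3.

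RefSeq promoter windows (250 bases before to 50 after the start, GRCm38.p6) were found for Gng8, Tubb3, Dpysl5, Crmp1, Dcx and Marcksl1, and not matched for Gap43, Stmn1, Stmn2 and Dpysl3. Ebf1 and Lhx2 work with Ldb1 in olfactory neurons, so their motifs were searched as letters. The Ebf core CCCNNGGG, which reads the same on both strands, occurred in the Dpysl5 window alone, where it stood 2 times (13.7% of all 32817 windows hold it). The homeodomain motif TAATTA, also the same on both strands, occurred in both Dcx windows (5.30% of windows). These windows overlap and hold the same single match. The E-box CAGCTG (16.3%) and the CTCF consensus (0.558%) were in none of the 6 genes' windows. These matches show letters and not binding. Crmp1 and Dcx have 2 windows each, and those of Dcx share most of their bases. The ratio of observed to expected CpG was lowest in the Dcx windows (0.201 and 0.219), was 0.339 for Gng8, and was 0.717 and 0.955 in the Crmp1 windows. The 250 bases before the start of Dpysl5 are shown with both Ebf cores in capitals, because it was the 1 window that held them.
Dpysl5, chr5:30711314-30711563, forward strand: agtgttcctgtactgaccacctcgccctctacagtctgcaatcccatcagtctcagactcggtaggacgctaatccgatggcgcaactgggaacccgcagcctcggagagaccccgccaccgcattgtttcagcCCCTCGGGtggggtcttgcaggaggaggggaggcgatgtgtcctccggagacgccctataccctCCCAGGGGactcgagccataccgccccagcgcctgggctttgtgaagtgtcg

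Relatives of the 10 genes were placed in the same way. Of 27 such genes 2 had a start site within 10 kb of a boundary (14.3% of all genes), both inside a weak bin. They were Gng4 (strength 0.250) and Gng13 (0.444), the latter encoding the gamma subunit of mature olfactory neurons. Gngt1 (171 kb) and Gng11 (161 kb), which share a domain, were the farthest. The median distance of the relatives was 55.9 kb and their median domain 220 kb. Strong boundaries stood on both sides of 12 of the 27 (37.1% of all genes). The 27 genes lay in 25 distinct domains. Of the 4 stathmin genes, on 4 chromosomes, Stmn2 and Stmn4 each stood alone in a domain of 85 kb. Stmn4 was 40.7 kb from its nearest boundary and Stmn3 45.5 kb. None of the 5 collapsin response mediator genes was within 10 kb of a boundary, with distances from 56.6 kb for Dpysl5 to 114 kb for Dpysl4. All 4 doublecortin genes listed, Dcx, Dclk1, Dclk2 and Dclk3, had strong flanks on both sides (37.1% of all genes). So had 2 of 4 stathmin, 3 of 5 collapsin response mediator, 2 of 8 beta tubulin and 4 of 12 G protein gamma genes. The 2 beta tubulin genes, Tubb2a and Tubb2b, share 1 domain and so the same flanks. Dcdc2b, which also carries doublecortin domains, was not in the list. It starts in the Marcksl1 domain, which has a weak flank (0.407). Marcks, the relative of Marcksl1, stood alone in 920 kb, and Basp1, which resembles Gap43 in function, stood alone in 365 kb and 16.2 kb from a boundary.

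Among 18 other genes of neuronal growth, 3 start sites were within 10 kb of a boundary (14.3% of all genes). Map1b, which encodes a microtubule protein of growing axons, started inside a weak bin (0.359). Mapt, the tau gene, was 6.39 kb from a strong one (1.23), and Cdk5r1, which encodes the activator of the kinase Cdk5, was 7.02 kb from another (0.800). Ncam1 (304 kb) and Nefm (165 kb) were the farthest. The median distance was 60.1 kb and the median domain 260 kb. Strong boundaries stood on both sides of 11 of the 18 (37.1% of all genes). The 18 genes lay in 17 distinct domains, and Nefl and Nefm, both among the 11, share one. All 3 lists thus had a median distance between 55.9 and 60.1 kb, close to the 56.6 kb of all protein-coding genes when all boundaries were used.

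**Figure D4:**
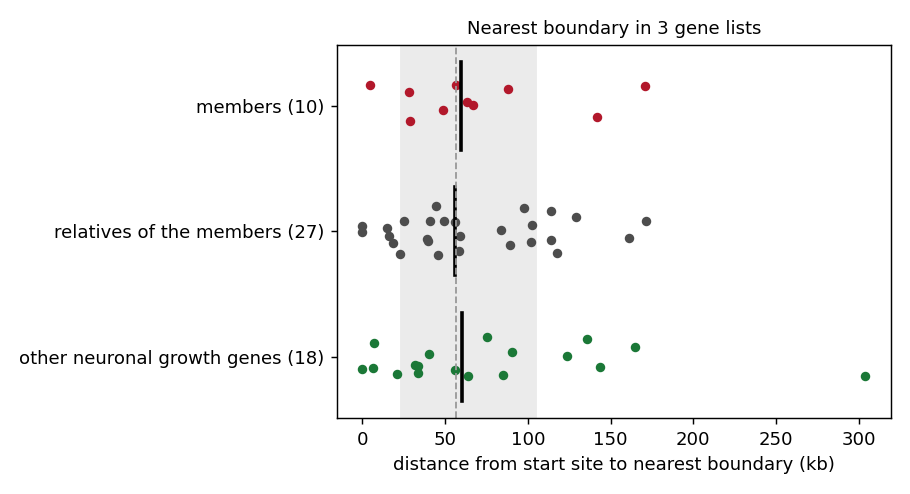
Distance from the start site to the nearest boundary (kb) for the 10 genes, 27 relatives and 18 other growth genes. Each point is a gene, black bars are list medians, the dashed line is the median of all protein-coding genes (56.6 kb) and the grey band its quartiles (23.3 to 105 kb). The 3 medians lie close to the dashed line.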

How the data were processed

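The deposited file lists 7610 boundary bins of 5 kb on GRCm38, each with a class and a strength. The strength is a score given by the authors, and its scaling is not stated. Per the labels' design text, the submitters combined both replicates into 1 contact matrix before calling. The caller and window were not given in the sources used here. No contact counts were analysed, so the depth behind each boundary is unknown and replicates could not be compared.

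Start sites were 5' ends of GENCODE M21 genes. Flanking boundaries were the nearest bins on either side, domains ran between their inner edges, and a start inside a bin took it as its upstream flank. Genes with no boundary on 1 side have no domain (21551 of 21755 genes have one). CTCF consensus matches (12728) were searched in the GRCm38 sequence. No test was made: values stand beside those of all genes. The flank code was tested on simulated data. Python 3.11.15, numpy 2.4.6, pandas 2.3.3 and matplotlib 3.10.9 were used. Members and lists were chosen with earlier results of these data known. All 10 genes were named, with up to 12 other genes of each domain (1 of them is not reported here), the genes at each flank, and in further lists those within 10 kb of a boundary and the 2 farthest. Other relatives were named after their values were seen. Alternatives changed the boundary class, window, start site, gene type and motif.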

Additional observations from a re-analysis of the deposited data

How the results depend on the processing

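No paired analysis was possible because the 2 replicates of the single group were combined before calling, so no replicate could be left out. Of 25 alternatives 9 moved a value past the range set for it, which for a median ran from the second lowest to the second highest of the 10 genes and for a count was 1.5 times. That range is wide: among the other 16, the median distance went from 59.8 to 129 kb with boundaries of score 1 or more, and with strong boundaries the weaker flank went from 0.381 to 0.798 and the companions from 2 to 5. Counting genes of any type also gave 5. The count of genes at a boundary was 0 with boundaries of score 1 or more (4.03% of all genes). It was 0 inside the bin alone (3.86% of all genes) and 4 within 50 kb (45.3% of all genes). The median domain was 445 kb with strong boundaries and 1220 kb with those of score 1 or more, as fewer boundaries delimit longer domains. In the last setting the median number of companions was 26 (20 for all genes) and the weaker flank 1.17 (1.18 for all genes). A CTCF consensus was at 3 of 20 flanks within the bin and at 20 with 1 mismatch. Depth limits could not be set without the contact counts.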
